A study of Mus musculus with 14 samples.

Results

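The leukocyte metalloproteinases described here are Mmp8, Mmp9, Mmp12 and Mmp25, the matrix metalloproteinases known from neutrophils and macrophages, followed across knockout and wild-type mouse lungs. They were chosen by name, as the probe sets of Entrez genes 17394, 17395, 17381 and 240047, and all 4 were found among the 21212 probe sets of the deposited table. Total RNA of whole lungs from 6-day-old C57BL/6J mice was measured on 14 Affymetrix mouse Gene ST arrays, 1 sample per array, from 100 ng of RNA each. The first set held 4 lungs labelled Atxn1L -/- and 4 wild types, and the second held 3 lungs labelled Atxn1 -/- and 3 wild types. The study asks what changes in lung gene expression when ataxin-1, or its close relative ataxin-1-like, is lost; both partner with Capicua, a DNA-binding repressor of transcription. The mice came from crosses of heterozygotes and a wild type was collected with each knockout, but no label ties one array to another as such a pair. The knockout alleles are those of the whole animal, so leukocytes carried them as well as lung cells. The authors normalized each set on its own, so a level in one set is not set against a level in the other. Every value below is a log2 RMA level, on which a step of 1 is a doubling of the array signal, and all changes are knockout minus wild type.

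Matrix metalloproteinases are zinc-dependent enzymes made as inactive proforms, which other proteases or oxidants open and which the tissue inhibitors of metalloproteinases (TIMPs) block. Mmp8, or neutrophil collagenase, cuts fibrillar collagen, and Mmp9, or gelatinase B, cuts denatured collagen and basement membrane, and both are packed into neutrophil granules before release. Mmp25 is a neutrophil protease anchored to the cell membrane by a lipid, and Mmp12, or macrophage metalloelastase, is the elastin-cutting enzyme of macrophages. Lung at this age is forming alveoli, with elastin being laid down and alveolar macrophages settling in the airspaces.

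The promoters are shown because the knocked-out proteins act through a repressor that binds DNA, and because ETS-family and AP-1 factors are known regulators of several Mmp genes. The RefSeq promoter table (GRCm38.p6) held entries for 3 of the 4 genes, with 2 start sites for Mmp12, and the 250 bases before each start are printed 5′ to 3′ on the strand of the gene. Capitals mark matches to the words searched on both strands: the AP-1 word TGANTCA, the PEA3 (Etv4) word AGGAAG, the PU.1 word GAGGAAG, which contains the PEA3 word, and the Capicua octamers TGAATGAA and TGAATGGA.
Mmp8, chr9:7558179-7558428, plus strand: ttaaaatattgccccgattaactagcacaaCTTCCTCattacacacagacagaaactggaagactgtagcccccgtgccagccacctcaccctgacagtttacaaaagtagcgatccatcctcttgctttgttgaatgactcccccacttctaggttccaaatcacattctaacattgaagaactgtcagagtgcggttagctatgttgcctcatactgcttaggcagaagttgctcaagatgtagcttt
Mmp12, start 1, chr9:7344147-7344396, plus strand: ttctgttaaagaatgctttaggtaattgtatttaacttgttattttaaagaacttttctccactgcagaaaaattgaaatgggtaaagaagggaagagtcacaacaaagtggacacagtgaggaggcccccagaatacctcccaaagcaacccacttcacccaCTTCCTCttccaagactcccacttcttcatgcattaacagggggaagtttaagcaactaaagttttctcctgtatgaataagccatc
Mmp12, start 2, chr9:7347124-7347373, plus strand: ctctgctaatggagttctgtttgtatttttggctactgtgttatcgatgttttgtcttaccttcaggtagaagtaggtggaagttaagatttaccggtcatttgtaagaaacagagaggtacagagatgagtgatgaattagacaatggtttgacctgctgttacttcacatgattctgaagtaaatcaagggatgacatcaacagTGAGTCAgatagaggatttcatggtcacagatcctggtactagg
Mmp25, chr17:23645270-23645519, minus strand: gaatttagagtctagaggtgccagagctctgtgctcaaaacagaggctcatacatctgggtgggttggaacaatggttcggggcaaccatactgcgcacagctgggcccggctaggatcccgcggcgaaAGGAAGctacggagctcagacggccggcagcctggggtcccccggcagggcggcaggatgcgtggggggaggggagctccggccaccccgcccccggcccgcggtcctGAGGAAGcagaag
In Mmp8 the PU.1 word lay on the reverse strand, 220 bases before the start. Start 1 of Mmp12 had the same word on the reverse strand, 87 bases before it, while start 2 had an AP-1 word 44 bases before it. Mmp25 held a PEA3 word 121 bases before its start and a PU.1 word 13 bases before it. These short words are common: among 32817 mouse promoters of the same length, 29.5% held the PEA3 word, 10.6% the PU.1 word and 6.75% the AP-1 word. Neither Capicua octamer was among the letters of the windows shown, and 2.08% of all promoters held one. The matches are a description of the letters and no binding was measured.

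Each array correlated across probe sets with the closest other array of its set at r between 0.994 and 0.998. The Atxn1l probe set, at 6.68 to 7.05 on the knockout arrays and 9.29 to 9.59 on their controls, matched its labels. The Atxn1 probe set lay at 10.99 to 11.04 on the arrays labelled Atxn1 -/- and at 10.92 to 11.14 on their controls, so it does not check the second set's labels, and whether its probes lie outside the deleted part is not known here. Xist, the RNA that silences one X chromosome in female cells, had low levels on replicate 1 of the Atxn1l knockouts, replicates 1 and 2 of their wild types, replicate 1 of the Atxn1 -/- arrays and replicates 1 and 2 of their wild types, and high on the others. Of 24 measured neutrophil markers, the mean level was 8.58 to 9.76 in Atxn1l knockouts and 8.20 to 8.67 in their wild types, with replicate 1 of the knockouts highest. In the second set it was 9.09 to 9.26 in Atxn1 -/- and 8.98 to 10.20 in wild types, with replicate 3 of the wild types highest. These 2 arrays stand apart in neutrophil markers, and each member is given with and without them. Each is also the highest of its set for Mmp8, Mmp9 and Mmp25. Leaving it out could thus move the change of these genes in only one direction, down in the first set and up in the second. On this log2 scale no marker is at 0, and Ly6g, a neutrophil surface protein, ranged from 6.34 to 10.07 over the first set. The mean of 12 lung-defining genes lay between 12.36 and 12.88 over all arrays. Sftpc, the surfactant protein of alveolar type 2 cells, lay between 13.87 and 14.42, and Foxj1, of ciliated cells, between 8.53 and 9.54. In whole lung, fewer cells of a type and less RNA per cell cannot be told apart.

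Mmp8 showed the widest spread of the 4 genes and the largest difference in Atxn1l knockouts, which did not pass the test over all probe sets. The knockout arrays had Mmp8 levels of 9.98, 8.36, 8.12 and 7.89 (replicates 1 to 4), and the wild types had 7.53, 7.69, 6.98 and 6.80. All 4 knockouts thus lay above all 4 wild types, by a gap of 0.20 between the nearest arrays, and replicate 1 lay far above the other knockouts. The means were 8.59 ± 0.95 (SD, n = 4) and 7.25 ± 0.43 (SD, n = 4), a difference of 1.34 (SE 0.41, 95% confidence interval 0.43 to 2.25) or 2.53-fold, with an adjusted p of 0.420 by limma. Its unadjusted p of 0.00837 ranked 422 among the 21212 probe sets. Without replicate 1 of the knockouts, the array richest in neutrophil markers and the only knockout with a low Xist level, the difference was 0.87 (SE 0.21) with an adjusted p of 0.327 by limma. With the Xist level as a covariate it was 1.66 (SE 0.23) with an adjusted p of 0.0565 by limma, and with the neutrophil list mean as a covariate, an alternative chosen after seeing the data, it was 0.36 (SE 0.10).

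Mmp8 in the Atxn1 set turned on 1 wild-type array. The Atxn1 -/- arrays had Mmp8 at 8.31, 8.48 and 8.68, and the wild types at 7.86, 7.77 and 10.94. The groups overlap because wild-type replicate 3 exceeded every other array of the study's second set, while the other 2 wild types lay below all 3 knockouts. The means were 8.49 ± 0.19 (SD, n = 3) and 8.86 ± 1.80 (SD, n = 3), a difference of -0.37 (SE 0.79, 95% confidence interval -2.25 to 1.51). Leaving out that wild type, the highest array, could only raise the difference. With 3 knockouts against the other 2 wild types it turned to 0.67 (SE 0.11), with an adjusted p of 0.99989 by limma. With all arrays and array weights the difference was -2.16 (SE 0.55), with an adjusted p of 0.139 by limma. Given the levels above, such a value needs most of the wild-type weight on replicate 3, so it does not guard against that array. The wild-type SD of Mmp8 was above that of 99.5% of probe sets in the first set and 99.96% in the second.

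**Figure D1:**
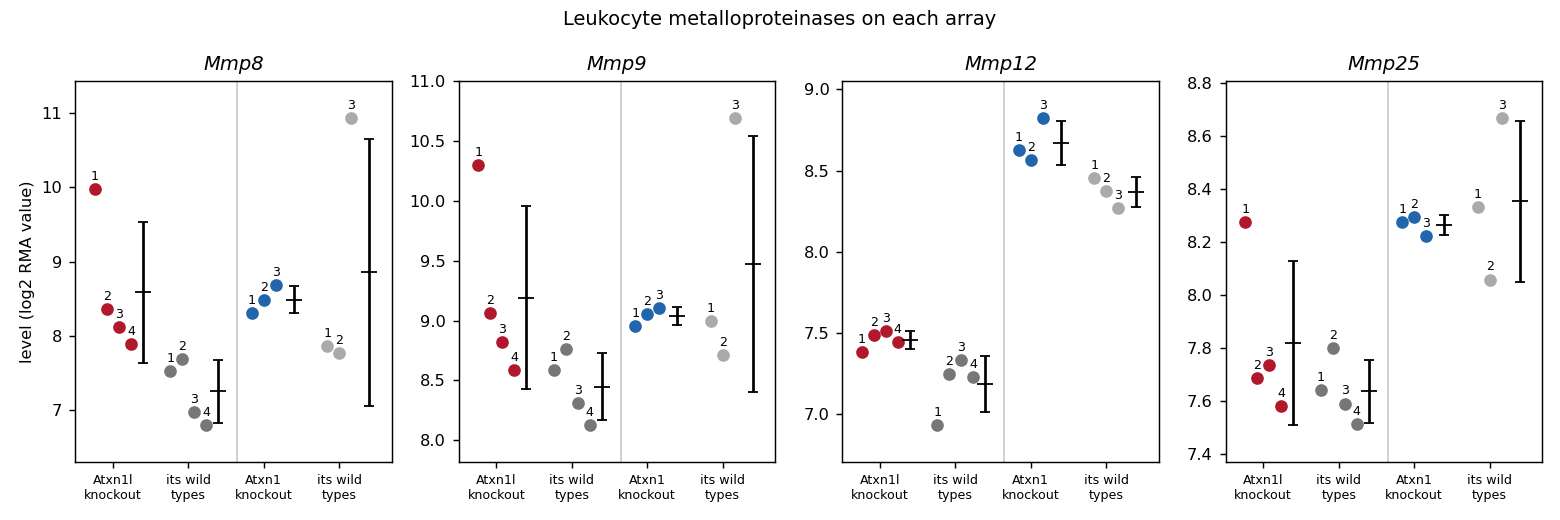
Level of each gene (log2 RMA value) on each of the 14 arrays, by group. Points are arrays and black bars are group means with SD. The 4 Atxn1l knockouts lie above their 4 wild types for Mmp8 and Mmp12, and 1 wild type of the Atxn1 set stands far above the rest for Mmp8 (10.94) and Mmp9 (10.70).

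Mmp9 followed Mmp8 from array to array with a smaller difference in Atxn1l knockouts. Its levels were 10.30, 9.06, 8.82 and 8.59 in the knockouts and 8.59, 8.76, 8.31 and 8.13 in the wild types. Only 3 of the 4 knockouts lay above every wild type, and replicate 1 was again the highest. The means of 9.19 ± 0.76 (SD, n = 4) and 8.45 ± 0.28 (SD, n = 4) differed by 0.74 (SE 0.32, 95% confidence interval 0.03 to 1.46), or 1.67-fold, with an adjusted p of 0.569 by limma. Without replicate 1 of the knockouts this was 0.37 (SE 0.15). With the neutrophil list mean as a covariate it was -0.02. Atxn1-set levels were 8.96, 9.05 and 9.10 in Atxn1 -/- and 8.999, 8.71 and 10.70 in wild types. Here the groups overlapped and the same wild type was the high one. The difference was -0.43 (SE 0.47, 95% confidence interval -1.55 to 0.68), and 0.18 (SE 0.10) without that array. Array weights gave -1.49 (SE 0.34; adjusted p = 0.138 by limma), which again needs most of the wild-type weight on that array.

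Mmp25, the membrane-anchored neutrophil enzyme, varied least among the neutrophil members. Its levels were 8.27, 7.69, 7.74 and 7.58 in Atxn1l knockouts and 7.64, 7.80, 7.59 and 7.52 in wild types. The groups overlapped, and 1 of 4 knockouts, replicate 1, lay above all wild types. The difference was 0.18 (SE 0.13, 95% confidence interval -0.12 to 0.48; adjusted p = 0.773 by limma) with all arrays and 0.03 (SE 0.07) without replicate 1. Levels in the Atxn1 set were 8.28, 8.29 and 8.22 in Atxn1 -/- and 8.33, 8.06 and 8.67 in wild types, with wild-type replicate 3 again the highest. The difference there was -0.09 (SE 0.14, 95% confidence interval -0.42 to 0.25), 0.07 (SE 0.09) without that wild type and -0.36 (SE 0.10; adjusted p = 0.148 by limma) with array weights. As for Mmp8, the weighted value needs most of the wild-type weight on replicate 3.

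Mmp12, the macrophage elastase, had a small difference of the same sign and like size in both sets, without overlap between groups. Its signal was low, with a wild-type mean above that of 29.1% of probe sets in the Atxn1l set and 34.0% in the Atxn1 set. Whether that level lies above the array background was not tested. In the Atxn1l set the knockouts had levels of 7.38, 7.49, 7.51 and 7.44 and the wild types 6.93, 7.24, 7.33 and 7.23. Every knockout lay above every wild type, but by a gap of only 0.05 between the nearest arrays. The means of 7.46 ± 0.06 (SD, n = 4) and 7.18 ± 0.17 (SD, n = 4) differed by 0.27 (SE 0.08, 95% confidence interval 0.09 to 0.45), or 1.21-fold, with an adjusted p of 0.415 by limma. The Atxn1 -/- levels of 8.62, 8.56 and 8.82 in the second set lay above the wild types' 8.45, 8.37 and 8.27, with a gap of 0.11. The difference was 0.30 (SE 0.08, 95% confidence interval 0.10 to 0.50), or 1.23-fold, with an adjusted p of 0.999886 by limma, although its unadjusted p of 0.00883 ranked 37 of 21212. Neither array rich in neutrophil markers carried these values: the difference was 0.30 (SE 0.09) without replicate 1 of the Atxn1l knockouts and 0.26 (SE 0.09) without wild-type replicate 3 of the Atxn1 set.

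Read against all probe sets, none of the 4 genes passed an adjusted p of 0.05 in either knockout. In the Atxn1l set 5 probe sets (0.0236% of 21212) passed as higher, none of them a member, and in the Atxn1 set 0 (0%) passed by limma, where 258 probe sets had an unadjusted p under 0.05. Mmp8 and Mmp12 were 2 of 4 members whose Atxn1l knockouts all exceeded all wild types, against 2.76% of probe sets. Mmp12 alone did so in the Atxn1 set, against 2.85% of probe sets. Across both sets 31 probe sets (0.146%) had every knockout above every wild type, Mmp12 among them. By exact two-sided permutation over arrays, Mmp8 and Mmp12 each reached p = 0.0286 in the Atxn1l set, the smallest that 4 against 4 arrays allow, or 0.114 adjusted over the 8 tests of members and sets. The exact permutation p of Mmp9 was 0.0857 and that of Mmp25 was 0.371, which adjusted to 0.2 and 0.594. Mmp12 in the Atxn1 set had an exact permutation p of 0.1, the smallest that 3 against 3 arrays allow, so this design cannot reach 0.05. All p-values measure the spread between these samples, which the labels number as replicates and do not otherwise describe.

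**Figure D2:**
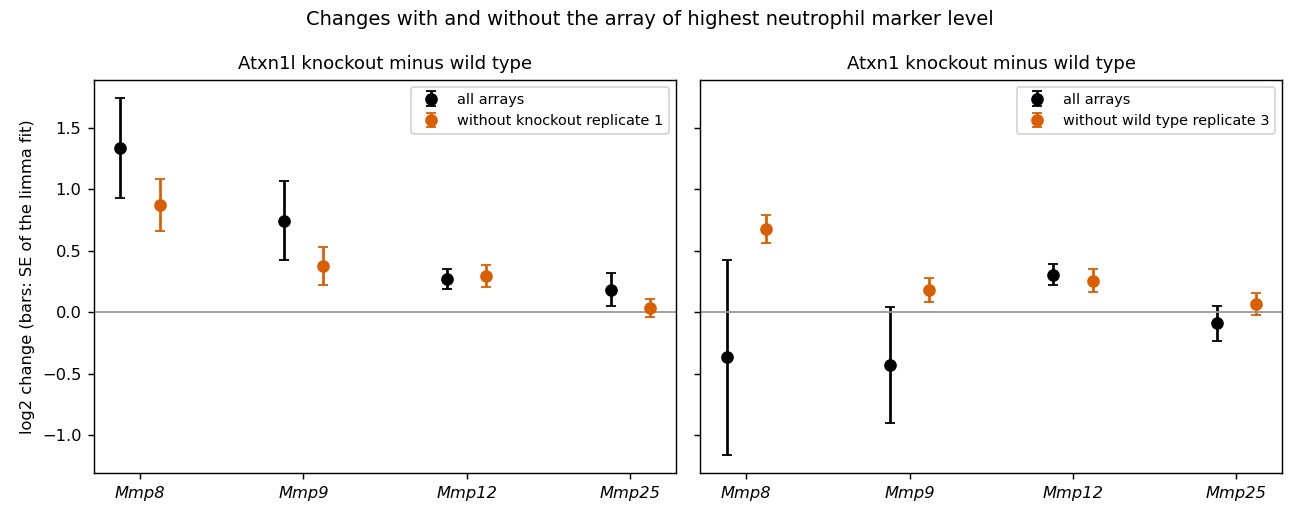
Change of each gene (log2, knockout minus wild type) in the Atxn1l set (left) and the Atxn1 set (right), with all arrays (black) and without the array of highest neutrophil marker level (orange). Bars are SE of the limma fit. Mmp8, Mmp9 and Mmp25 turn from below 0 (-0.37, -0.43 and -0.09) to above 0 (0.67, 0.18 and 0.07) in the Atxn1 set when that array is left out, and Mmp12 lies between 0.26 and 0.30 in every case. The array left out is the highest of its set for Mmp8, Mmp9 and Mmp25, so the direction of their shift was fixed by its choice.

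No member passed the test of the difference between the knockouts. In 1 fit of 14 arrays the Atxn1l effect minus the Atxn1 effect was 1.70 (SE 0.92, 95% confidence interval -0.26 to 3.67) for Mmp8 and 1.18 (SE 0.61, 95% confidence interval -0.13 to 2.48) for Mmp9. It was -0.03 (SE 0.13, 95% confidence interval -0.30 to 0.24) for Mmp12 and 0.27 (SE 0.22, 95% confidence interval -0.19 to 0.74) for Mmp25. All adjusted p were 0.999553 by limma, and 2 probe sets (0.00943%) passed in either direction. Without both arrays of highest neutrophil mean, a setting chosen after seeing the data, the difference was 0.20 (SE 0.30) for Mmp8 and 0.19 (SE 0.23) for Mmp9, 0.04 (SE 0.14) for Mmp12 and -0.04 (SE 0.12) for Mmp25. With array weights it was 3.13 (SE 0.80; adjusted p = 0.146 by limma) for Mmp8 and 1.96 (SE 0.52; adjusted p = 0.152 by limma) for Mmp9. How these weights fell on single arrays was not examined. With all arrays, the intervals of Mmp8 and Mmp9 are wide enough to hold differences of several fold as well as none. The mean of both knockouts' effects on Mmp12, an alternative chosen after seeing the data, was 0.29 (SE 0.06; adjusted p = 0.464 by limma), ranking 19 of 21212.

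Mmp8, Mmp9 and Mmp25 varied from mouse to mouse together with the neutrophil markers in the Atxn1l set, and no relation of Mmp12 passed. Over the 8 arrays of the Atxn1l set, Mmp9 correlated with the mean of the 24 neutrophil markers at r = 0.991 (exact permutation p = 4.96e-05, adjusted p = 0.00139 over 28 relations) and rho = 0.976 (exact permutation p = 0.000397, adjusted p = 0.00556). Mmp8 did so at r = 0.982 (exact permutation p = 0.000174, adjusted p = 0.00185) and rho = 0.976 (adjusted p = 0.00556). Without the 2 arrays farthest from the median, r was 0.919 for Mmp9 and 0.930 for Mmp8. The relation between Mmp8 and Mmp9 themselves was as close, at r = 0.983 (exact permutation p = 0.000198, adjusted p = 0.00185), rho = 0.929 (exact permutation p = 0.00223, adjusted p = 0.0194) and r = 0.924 without those arrays. Mmp25 correlated with the neutrophil mean at r = 0.965 (exact permutation p = 0.00208, adjusted p = 0.00972) and rho = 0.833 (exact permutation p = 0.0154, adjusted p = 0.0519), and r was 0.661 without the 2 arrays. The macrophage markers moved with Mmp8 as well, at r = 0.971 (exact permutation p = 0.000570, adjusted p = 0.00399) and rho = 0.905 (exact permutation p = 0.00456, adjusted p = 0.0256), with r = 0.852 without the 2 arrays. With group means subtracted this was r = 0.939 (exact permutation p = 0.0313, adjusted p = 0.0795), which missed the threshold, and r = 0.578 without the 2 arrays. In the second set it was r = 0.781 (exact permutation p = 0.0319, adjusted p = 0.0639; rho = 0.771, exact permutation p = 0.103, adjusted p = 0.192). Mmp9 and Mmp25 also passed with the macrophage mean in the Atxn1l set by r but not by rho. Their r was 0.946 (exact permutation p = 0.00362, adjusted p = 0.0113) and 0.890 (exact permutation p = 0.0200, adjusted p = 0.0466). Without the 2 farthest arrays these were 0.620 and 0.151.

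In the 6 arrays of the Atxn1 set Mmp8 and Mmp9 again correlated with the neutrophil markers. Mmp8 had r = 0.994 (exact permutation p = 0.00139, adjusted p = 0.00778) and rho = 1 (exact permutation p = 0.00278, adjusted p = 0.0194), with r = 0.928 without the 2 farthest arrays. Mmp9 had r = 0.994 (exact permutation p = 0.00278, adjusted p = 0.00972) and rho = 0.943 (exact permutation p = 0.0167, adjusted p = 0.0519), with r = 0.897 without them. For Mmp25 the r of 0.900 (exact permutation p = 0.0472, adjusted p = 0.0881; rho = 0.486, exact permutation p = 0.356, adjusted p = 0.474) turned to -0.802 without them, so that relation rests on those arrays. With group means subtracted, r with the neutrophil mean in the Atxn1l set was 0.986 for Mmp8, 0.985 for Mmp9 and 0.991 for Mmp25. In the Atxn1 set it was 0.999 for Mmp8 and 0.995 for Mmp9, each at the smallest exact permutation p that 3 and 3 arrays allow (0.0278, adjusted p = 0.0795), and did not pass. Without wild-type replicate 3 the relations there were r = 0.958 for Mmp8 and 0.872 for Mmp9 and missed the threshold.

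Mmp12 had no relation past the test with neutrophil or macrophage markers. Against the neutrophil mean it had r = 0.320 (exact permutation p = 0.375, adjusted p = 0.456) and rho = 0.643 (exact permutation p = 0.0962, adjusted p = 0.192) in the Atxn1l set. Its r was -0.444 in the Atxn1 set (exact permutation p = 0.371, adjusted p = 0.456; rho = 0.0857, exact permutation p = 0.919, adjusted p = 0.953), which became 0.782 without the 2 farthest arrays and so rests on them. Against the mean of 22 macrophage markers its r was 0.427 (exact permutation p = 0.266, adjusted p = 0.397; rho = 0.667, exact permutation p = 0.0831, adjusted p = 0.179) in the Atxn1l set. With group means subtracted the Atxn1l-set values were -0.30 with neutrophil and -0.32 with macrophage markers, so the direction of Mmp12's relations is not settled in these data.

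**Figure D3:**
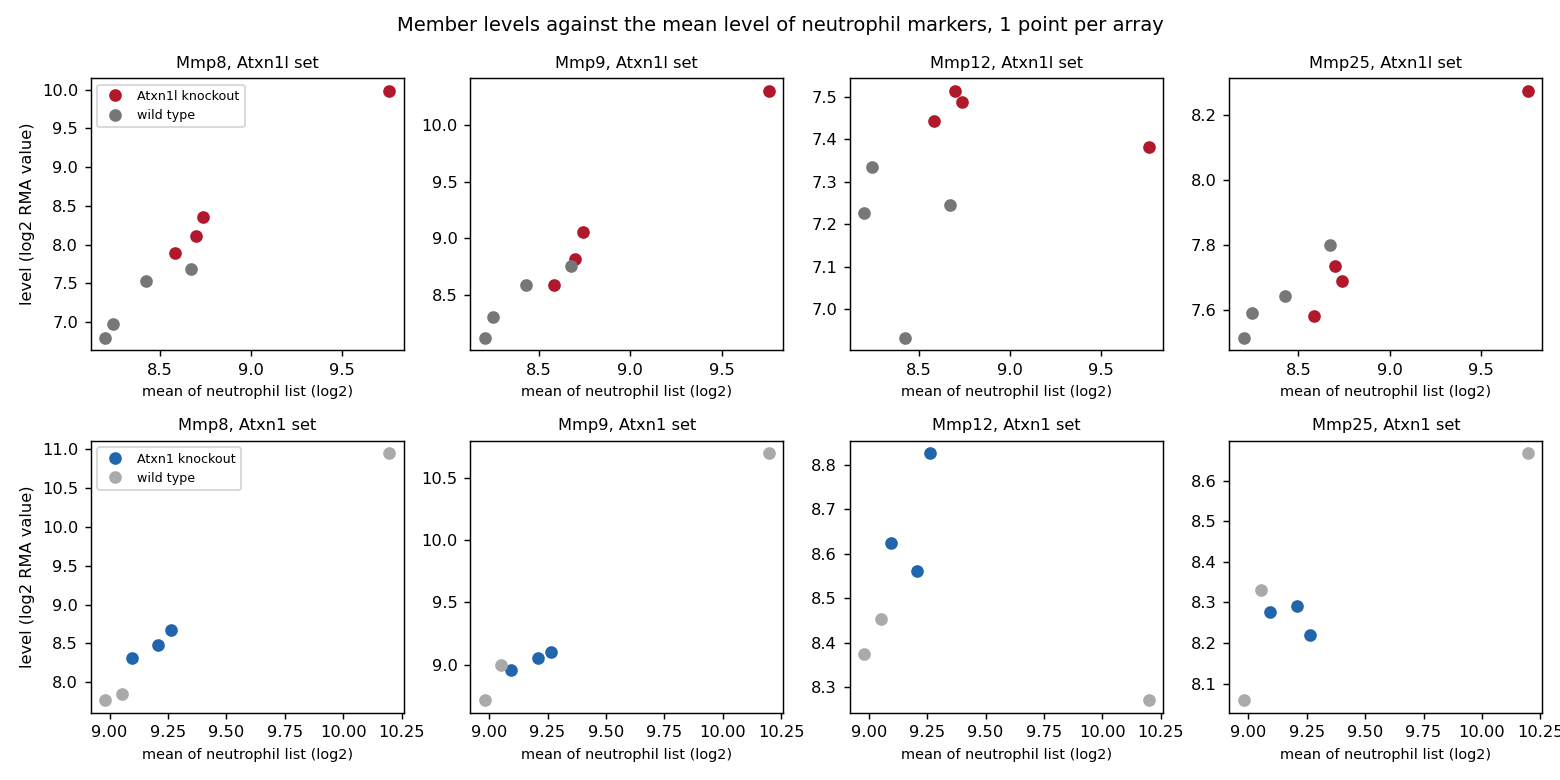
Level of each gene (log2 RMA value, y axis) against the mean level of 24 neutrophil markers (log2, x axis), 1 point per array, with the Atxn1l set in the upper row and the Atxn1 set in the lower row. Mmp8 and Mmp9 lie close to a line in both sets (r = 0.982 and 0.991 above, 0.994 and 0.994 below), while Mmp12 shows r of 0.320 and -0.444.

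Members were next set against the neutrophil marker mean of the same array. In the Atxn1l set the Mmp8 level minus that mean was -0.36 ± 0.41 (SD, n = 4) in knockouts and -1.14 ± 0.24 (SD, n = 4) in wild types. This was a difference of 0.78 (SE 0.24) with 4 of 4 knockouts above all wild types. The same difference was 0.19 (SE 0.13) for Mmp9, and -0.38 (SE 0.13) for Mmp25, whose 4 knockouts all lay below all wild types. For Mmp12 it was -0.29 (SE 0.33), or -0.13 (SE 0.20) against the macrophage mean. The values for the Atxn1 set were -0.15 (SE 0.65) for Mmp8, -0.21 (SE 0.23) for Mmp9 and 0.13 (SE 0.25) for Mmp25. For Mmp12 the value there was 0.53 (SE 0.45), or 0.26 (SE 0.20) against the macrophage mean. The neutrophil mean itself changed by 0.56 in the Atxn1l set and -0.22 in the Atxn1 set, and the macrophage mean by 0.40 and 0.04. Subtraction carries these changes over with the sign turned. The opposite signs of Mmp12 in the 2 sets thus come from the list means, as its own change was 0.27 and 0.30. The share of all probe sets without overlap on this measure was not computed. Subtraction also takes every member to move 1 for 1 with the mean. With the neutrophil mean as a covariate instead, the Atxn1l-set change was 0.36 for Mmp8 and -0.13 for Mmp25. Whether the neutrophils of the 2 groups differ in Mmp8 per cell was not tested.

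The genes whose pattern over arrays was most like each member's are given as a description. Over 14 arrays with group means subtracted, among 18781 genes, those closest to Mmp8 were Csta3 (r = 0.986), the chemokine receptor Cxcr2 (0.985), Mmp9 (0.985), Stfa3 (0.984) and Retnlg (0.984), of which 2 are on the neutrophil list. For Mmp9 they were Asprv1 (0.989), the neutrophil surface protein Cd177 (0.987), Mmp8 (0.985), Retnlg (0.984) and Csta3 (0.984). Mmp25 was closest to Rab27a (0.964), a small GTPase of granule release, then Asprv1 (0.959), Mapk13 (0.954), Cd177 (0.954) and Tarm1 (0.952), with Mmp9 at rank 10 and Mmp8 at rank 74. Mmp12 had lower values, with Ifnk (0.891), Rnd2 (0.878), the T-cell coreceptor Cd4 (0.865), Rab37 (0.847) and Gm6588 (0.833), none of them on the neutrophil or macrophage list. When the mean of each set was subtracted in place of the group means, 3 of the 5 for Mmp8, 4 for Mmp9, 4 for Mmp25 and 1 for Mmp12 remained.

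Neutrophil genes had values above 0 in Atxn1l knockouts, and none of them passed the test. All 24 neutrophil markers had a change above 0, with a median of 0.46, against 10879 of 21212 probe sets and a median of 0.00 overall. Without replicate 1 of the knockouts the median was 0.26 and 21 of 24 lay above 0. Among the 10 genes listed for the specific granules, the compartment that holds Mmp8, 9 lay above 0 with a median of 0.46 (0.32 without replicate 1). Of these 10, 6 are also neutrophil markers of the list. Ngp, a neutrophil granule protein, had 1.41 (SE 0.34; adjusted p = 0.318 by limma) and 1.06 without replicate 1. The iron binder Ltf had 1.20 (SE 0.33) and 0.81, Olfm4 had 0.74 (SE 0.18) and 0.57, and Cebpe, the transcription factor of late granule formation, had 0.37 (SE 0.09) and 0.30. The 8 genes listed for the azurophil granules, which form earlier in neutrophil formation, had a median of 0.11 (0.07 without replicate 1). Among them were the protease inhibitor Serpinb1a at 0.26 (SE 0.10) and cathepsin G at 0.20 (SE 0.11). Of these 8, 4 are also neutrophil markers of the list. Neither granule list is made only of granule proteins or of genes particular to neutrophils, so their medians do not compare the granules alone. For Atxn1 -/- arrays 3 of 24 neutrophil markers lay above 0, with a median of -0.19, which turned to 0.18 with 17 of 24 above 0 when wild-type replicate 3 was left out. That array was chosen as the highest in these same markers, so leaving it out could only raise their mean change. None of the lists held a gene that passed in the Atxn1 set.

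Macrophage markers, the background to Mmp12, did hold genes that passed in Atxn1l knockouts. Of 22 measured, 19 had a change above 0, with a median of 0.35, and 2 passed as higher: Msr1, the scavenger receptor (0.69, SE 0.08; adjusted p = 0.0197 by limma), and Chil3, a chitinase-like macrophage protein (1.46, SE 0.16; adjusted p = 0.0210 by limma). Over all probe sets 5 of 21212 passed as higher. Without replicate 1 of the knockouts 4 markers passed, of 12 probe sets in all, and the median was 0.23. In the 8 fits that each left out 1 array, Msr1 passed in 3 and Chil3 in 4, with changes of 0.63 to 0.73 and 1.30 to 1.61, and neither passed without knockout replicate 4 or wild-type replicate 1, 2 or 3. With the replicate block Chil3 passed (adjusted p = 0.0482 by limma) and Msr1 did not (adjusted p = 0.0880 by limma), and neither passed with the neutrophil covariate. Of the 11 monocyte and dendritic cell genes, 1 passed as lower, the lectin Cd209a (-0.58, SE 0.07; adjusted p = 0.0253 by limma), which passed in 4 of the 8 fits without 1 array; 10 of the 11 lay above 0, with a median of 0.11. Among the Atxn1 -/- values 14 of 22 macrophage markers lay above 0 with a median of 0.03, and 21 of 22 with a median of 0.12 without wild-type replicate 3. In Atxn1l knockouts all 7 platelet genes lay above 0, with a median of 0.16 (0.09 without replicate 1), and for their mean 3 of 4 knockouts lay above all wild types. Medians of the remaining marker lists in the Atxn1l set were 0.05 for 11 lymphocyte genes, 0.03 for 12 mast cell, basophil and eosinophil genes, -0.01 for 5 erythroid genes and -0.00 for 12 lung-defining genes. Their part in the member values was not tested.

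Genes that bring leukocytes into tissue or hold these enzymes at the cell surface were described next. Of 16, 15 lay above 0 in Atxn1l knockouts with a median of 0.29 (0.16 without replicate 1), and none passed. Of the 16, 4 are also neutrophil markers of the list, Itgam among them. The integrin chains Itgam and Itgb2, which form the receptor that binds neutrophil proteases, had 0.83 (SE 0.23) and 0.37 (SE 0.10). The monocyte chemokine Ccl2 had 0.32 (SE 0.11) and the growth factor Csf1 had 0.25 (SE 0.08). For Atxn1 -/- arrays 5 of 16 lay above 0, with a median of -0.05, or 0.05 without wild-type replicate 3.

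Activators and substrates of the enzymes, and a list of protease inhibitors, showed small values in Atxn1l knockouts and none passed. Among 18 activators of the proforms 14 lay above 0 with a median of 0.06. Those of smallest p included the plasminogen activators Plau (0.17, SE 0.05) and Plat (0.24, SE 0.09) and the mast cell tryptase Tpsb2 (0.19, SE 0.07). Of 12 protease inhibitors, not all of them inhibitors of metalloproteinases, 7 lay above 0 with a median of 0.05. The secreted serine protease inhibitor Slpi had 0.34 (SE 0.15), and Timp1, the inhibitor that binds pro-Mmp9, had 0.24 (SE 0.16), or 0.04 without replicate 1. Among 18 substrates 14 lay above 0 with a median of 0.06. The hyaluronan receptor Cd44, which docks Mmp9, had 0.18 (SE 0.06), the proteoglycan Vcan 0.14 (SE 0.06) and the neutrophil chemokine Cxcl5 0.25 (SE 0.11), while elastin itself (Eln), the substrate of Mmp12, had 0.06 (SE 0.07). Medians in the Atxn1 set were 0.02 for activators, 0.01 for inhibitors and 0.01 for substrates.

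Among the transcription factors listed as inputs to these genes, Etv4 was the one that passed apart from the deleted gene. Etv4, the PEA3 factor that Capicua is known to repress, lay at 8.39, 8.51, 8.38 and 8.40 in Atxn1l knockouts and 7.92, 7.96, 7.98 and 7.89 in wild types. It rose by 0.48 (SE 0.05; adjusted p = 0.0130 by limma), and its groups did not overlap. It passed in 5 of the 8 fits that left out 1 array, with changes of 0.45 to 0.50, and not without knockout replicate 4 or wild-type replicate 1 or 2. It also missed the threshold with the replicate block (adjusted p = 0.0880 by limma) and with the neutrophil covariate (adjusted p = 0.0893 by limma). On the arrays of the Atxn1 set Etv4 lay at 8.93, 8.99 and 8.84 in Atxn1 -/- and 8.92, 8.87 and 8.71 in wild types, which overlap, with a difference of 0.09 (SE 0.07). Its relatives Etv5 and Etv1 had 0.07 (SE 0.05) and -0.02 (SE 0.10) in Atxn1l knockouts. Spi1, the gene of the myeloid factor PU.1, had 0.39 (SE 0.11; adjusted p = 0.403 by limma), or 0.26 without replicate 1. Capicua itself (Cic) had 0.14 (SE 0.05), and 14 of the 22 factors lay above 0 with a median of 0.03.

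Outside the 4 members, the metalloproteinases and sheddases listed lay close to 0 in both knockouts. The 21 other measured Mmp and Adam genes had changes from -0.10 to 0.21 in Atxn1l knockouts, with 12 above 0, a median of 0.01 and none past the test. The highest were Adam8, a leukocyte metalloproteinase (0.21, SE 0.13, or 0.06 without replicate 1), the collagenase Mmp13 (0.13, SE 0.06) and Mmp14, the membrane enzyme that activates Mmp2 (0.12, SE 0.05). In the Atxn1 set 8 of 21 lay above 0, with a median of -0.02. The 4 members had a median of 0.51 in Atxn1l knockouts (0.34 without replicate 1) and -0.23 in the Atxn1 set (0.22 without wild-type replicate 3). In Atxn1l knockouts Mmp8 (1.34) and Mmp9 (0.74) lay far above the other genes, while Mmp12 (0.27) and Mmp25 (0.18) lay near Adam8.

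**Figure D4:**
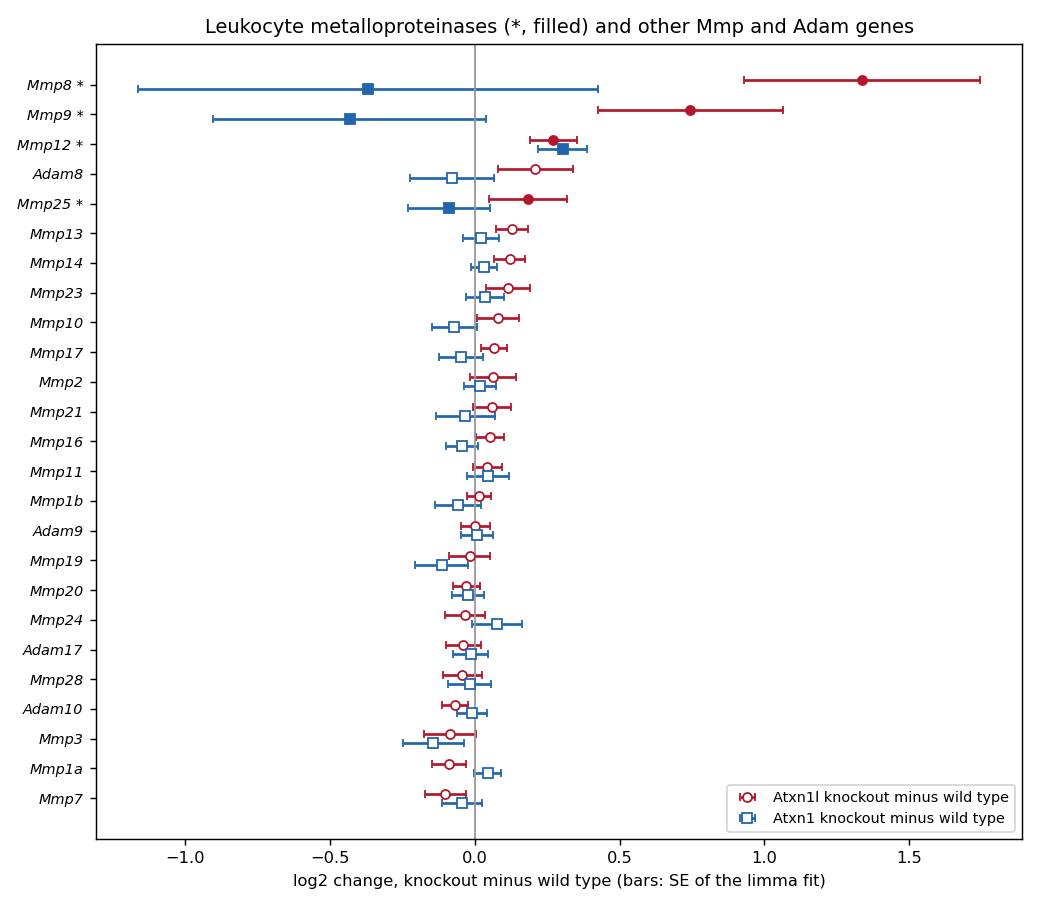
Change (log2, knockout minus wild type, x axis) of the 4 leukocyte metalloproteinases (starred, filled) and the 21 other measured Mmp and Adam genes in the Atxn1l set (circles) and the Atxn1 set (squares). Bars are SE of the limma fit. The other genes lie between -0.10 and 0.21 in the Atxn1l set, and only Mmp12 of the members lies above 0 in both.

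The genes that lie beside the members had changes near 0. Mmp8 and Mmp12 lie in a run of 10 Mmp genes on chromosome 9, which RefSeq orders as Mmp13, Mmp12, Mmp1b, Mmp3, Mmp1a, Mmp10, Mmp8, Mmp27, Mmp20 and Mmp7. The other 7 measured genes of the run had changes between -0.10 (Mmp7, matrilysin) and 0.13 (Mmp13) in Atxn1l knockouts. In the Atxn1 set they lay between -0.14 (Mmp3, stromelysin 1) and 0.04 (Mmp1a). Mmp9, on chromosome 2, lies between Zfp335 (0.04, SE 0.04) and Slc12a5 (0.13, SE 0.06). Mmp25, on chromosome 17, lies between Zscan10 (0.04, SE 0.06) and Bicdl2 (0.12, SE 0.06), and none of these neighbours passed the test.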

How the data were processed

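The deposited values are log2 levels made by the authors with RMA, separately over the 8 arrays of the Atxn1l set and the 6 of the Atxn1 set, and RMA and limma are named in the submitters' processing notes. Each probe set stands for 1 Entrez gene. Of 21212 probe sets, 18786 had 1 symbol in the platform's gene table, 6 had several and 2420 had none, and unnamed probe sets stayed in the fits. For the build and the probe set version, nothing is given in the sources used here. Each knockout minus wild type difference was estimated by lmFit and eBayes of limma 3.58.1 (R 4.3.3; two-sided, no covariate) over all probe sets of a set, with Benjamini-Hochberg adjustment and a threshold of 0.05. The difference between the knockouts came from 1 fit of 14 arrays with 4 group means. Single members were also tested by exact permutation with scipy 1.17.1, and correlations by exact permutation of pairings. Gene lists held 218 symbols, of which 201 were measured, in 16 lists, and were described by counts and medians. From each list the genes past the threshold and up to 4 of smallest p in the Atxn1l comparison were named, with the 5 genes most like each member and the genome neighbours. Eln, Etv1, Etv5, Ly6g and Sftpc fall outside this rule and were named after their values were seen. The members and lists were chosen with earlier results of these data known. Promoters came from RefSeq (GRCm38.p6). The alternatives tried were the replicate number as a block, array weights, the Xist level, filters, scaling, thresholds and leaving out each array. The fit was tested on simulated data. The number of arrays limits the precision.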

Additional observations from a re-analysis of the deposited data

Results flagged for a closer look

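Of 40 gene or list values tested within groups of 4 arrays, 4 had a highest or lowest array far from the others, where chance gives about 1 in 20 for each value. The 40 values share arrays, and the docking list shares 4 genes with the neutrophil list, so they are not independent. All 4 flagged values were in the Atxn1l knockouts. Replicate 1 was the highest array for the mean of the neutrophil markers, at 9.76 against 8.74 for the next knockout. It was also the highest for the mean of the macrophage markers, at 10.24 against 9.70, and for the mean of the docking and recruitment genes, at 9.08 against 8.56. Replicate 4 was the lowest for the mean of the other metalloproteinases, at 8.22 against 8.27 for the nearest array.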

How the results depend on the processing

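Of 232 member changes recomputed under the alternatives, 221 kept their direction and their side of the threshold and 11 turned direction, and no member passed under any alternative run. With the neutrophil list mean as a covariate, Mmp9 (-0.0191) and Mmp25 (-0.13) turned in the Atxn1l set and Mmp8 (0.22) in the Atxn1 set. Leaving out each array in turn gave, in the Atxn1 set, -0.91 to 0.67 for Mmp8, -0.81 to 0.18 for Mmp9 and -0.24 to 0.0683 for Mmp25, with wild-type replicate 3 the array that turned each. For the difference between the knockouts, leaving out 1 array gave -0.12 to 0.0451 for Mmp12. Leaving out both arrays of highest neutrophil mean gave 0.0405 for Mmp12 and -0.0365 for Mmp25, with 0.20 for Mmp8 and 0.19 for Mmp9, against 1.70 and 1.18 with all arrays. Array weights gave -2.16 for Mmp8, -1.49 for Mmp9 and -0.36 for Mmp25 in the Atxn1 set, values that need most of the wild-type weight on replicate 3.

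Counts of probe sets past the threshold moved with the arrays used. In the Atxn1l set 5 passed as higher and 4 as lower, against 1 and 1 with the replicate block, 8 higher with the Xist covariate and 0 and 1 with the neutrophil covariate. Without 1 array the counts were 0 to 20 higher and 2 to 5 lower. Array weights gave 1 higher probe set in the Atxn1 set and 1 in the difference between the knockouts. In that difference 2 passed as lower, against 1 with the replicate block, 1 without both high arrays and 1 to 2 without 1 array. The causes were not tested.

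The replicate numbers gave no clear pairing of the arrays. Arrays of one number correlated at 0.04 to 0.38 among Atxn1l knockouts and controls and at -0.42 to 0.42 among those of Atxn1. Of the Atxn1l numbers 2 of 4 correlated best with their own, and in the Atxn1 set replicate 3 did. Whether the numbers mark the collected pairs was not tested. With the replicate block the Atxn1l adjusted p by limma were 0.255 for Mmp8, 0.382 for Mmp9, 0.299 for Mmp12 and 0.649 for Mmp25.

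Of 224 correlations recomputed, 190 kept direction and side, 22 lost the threshold, 1 gained it and 11 turned. As deviations from group means in the Atxn1l set, Mmp12 turned to r of -0.40 with Mmp8, -0.33 with Mmp9, -0.23 with Mmp25, -0.30 with neutrophil and -0.32 with macrophage markers. In the Atxn1 set, leaving out 1 array gave Mmp12 an r of -0.587 to 0.918 with Mmp8, -0.721 to 0.761 with Mmp9, -0.881 to 0.292 with Mmp25, -0.650 to 0.873 with neutrophil and -0.369 to 0.451 with macrophage markers. Mmp25 with macrophage markers had -0.0838 to 0.750 there. Wild-type replicate 3 was the array that turned each. With 4 or 3 arrays a group, small changes are not detectable after adjustment.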
